A study of Mus musculus with 12 samples.

Results

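Fatty acids reach brain cells in steps. Carriers at the blood-brain barrier and in cell membranes take them up, binding proteins carry them through the cytosol, and acyl-CoA synthetases activate them by joining them to coenzyme A for storage, oxidation or insertion into membrane lipids. The 10 genes described here were chosen by name for these roles: 4 uptake genes (Mfsd2a, Cd36, Slc27a1 and Slc27a4), 3 cytosolic binding proteins (Fabp3, Fabp5 and Fabp7) and 3 long-chain acyl-CoA synthetases (Acsl3, Acsl4 and Acsl6). The choice was made with earlier results of these data known. All 10 were found in the table of 50563 genes by their mouse Ensembl identifiers.

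RNA-Seq was performed on the brain cortex of 12 E4FAD mice, an Alzheimer's disease model labelled APOE4+/+ and 5FAD-/+ that carries human APOE4 in place of the mouse gene together with familial Alzheimer's disease transgenes. The 5 DPAn-6 mice, 2 aged 12 months and 3 aged 14 months, received n-6 docosapentaenoic acid ethyl ester by daily oral gavage at 700 mg per kg for 3 weeks. The 7 CTRL mice, 2 aged 12 months and 5 aged 14 months, received vehicle with the same antioxidants. All 12 mice share the genotype, each gave 1 library, and both groups held females and males, whose sex the labels do not give mouse by mouse. DPAn-6 is a long-chain polyunsaturated fatty acid of the n-6 family and was compared here with vehicle for its effect on the mRNA expression of these genes. There was no group without the transgenes and no second dose.

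In the brain, MFSD2A of the capillary endothelium is known for carrying docosahexaenoic acid and other long-chain fatty acids bound to lysophosphatidylcholine. FABP7 is the brain-type binding protein of astrocytes and of glial precursors and is known for its high affinity for n-3 polyunsaturated fatty acids, whereas FABP3 is mainly neuronal. ACSL4 prefers arachidonic acid and ACSL6 is known for the retention of docosahexaenoic acid in neurons.

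Between 15339098 and 19500154 reads were counted on genes in the CTRL mice and between 15208803 and 26520251 in the DPAn-6 mice. Markers of excitatory neurons of the cortex were abundant in every library. Levels are given as CPM (counts of a gene per 1000000 counts of its library). The summed level over 6 genes was 8506 to 10573 CPM in CTRL, the highest in replicate 3, and 8751 to 9264 CPM in DPAn-6. CTRL replicate 3 stood apart from the other libraries for several of the 10 genes. Differences and correlations of these genes that rest on it are therefore given with and without it. Markers of the choroid plexus, a tissue outside the cortex, summed to 14.0 to 1692 CPM in CTRL and to 9.47 to 26.2 CPM in DPAn-6. In bulk tissue, fewer cells of a type and less RNA per cell cannot be told apart.

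The 10 genes spanned a wide range of levels. Levels are compared between genes as RPKM, the CPM per kilobase of exon. Acsl3, a synthetase of the endoplasmic reticulum and of lipid droplets, had the highest level, at 46.1 ± 8.82 RPKM (SD, n = 12). It was followed by Acsl6 at 30.0 ± 1.04 RPKM, Slc27a4 at 23.3 ± 3.19 RPKM, and Fabp3 at 19.6 ± 1.32 RPKM. Slc27a1 stood at 17.1 ± 2.48 RPKM, Acsl4 at 14.9 ± 3.11 RPKM and Fabp7 at 10.3 ± 3.50 RPKM. The lowest levels were those of Mfsd2a at 8.87 ± 1.97 RPKM, Fabp5 at 5.75 ± 0.892 RPKM and Cd36 at 0.128 ± 0.0967 RPKM. Neighbours in this order had overlapping ranges over the mice except at 3 steps, from Acsl3 to Acsl6, from Acsl6 to Slc27a4 and from Fabp5 to Cd36. The order rests on the annotated exon lengths: in CPM, with no length, Fabp7 was the lowest of the 3 binding proteins, at 12.8 CPM against 16.2 CPM for Fabp3 and 20.5 CPM for Fabp5.

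**Figure D1:**
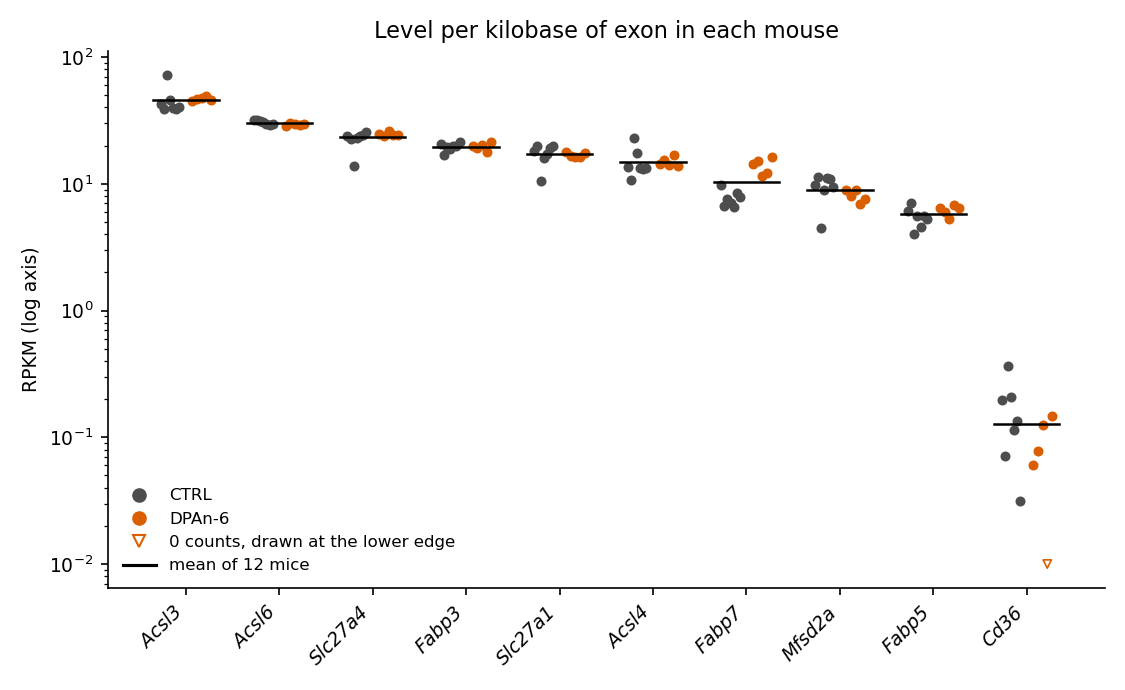
Level of each of the 10 genes in each mouse, in RPKM on a log axis, ordered by the mean of the 12 mice (black line). Acsl3 has the highest mean at 46.1 RPKM and Cd36 the lowest at 0.128 RPKM, and the DPAn-6 points of Fabp7 all lie above its CTRL points.

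Of the 10 genes, 9 were tested and 1 passed the test for a difference between DPAn-6 and CTRL. The mRNA expression of Fabp7 rose, that of the other 8 genes tested did not pass the test, and Cd36 had too few counts to be tested with the rest. Genes were compared with the quasi-likelihood test of edgeR over 15688 genes, with p-values adjusted by the Benjamini-Hochberg method over all of them. At an adjusted p below 0.05, 1 of the 9 genes tested was called, against 1.55% of all genes tested, and 1 of 9 was called higher, against 0.408% of all genes. At an unadjusted p below 0.05 it was also 1 of 9, against 14.5% of all genes. The median log2 fold change of all genes was -0.0047.

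**Figure D2:**
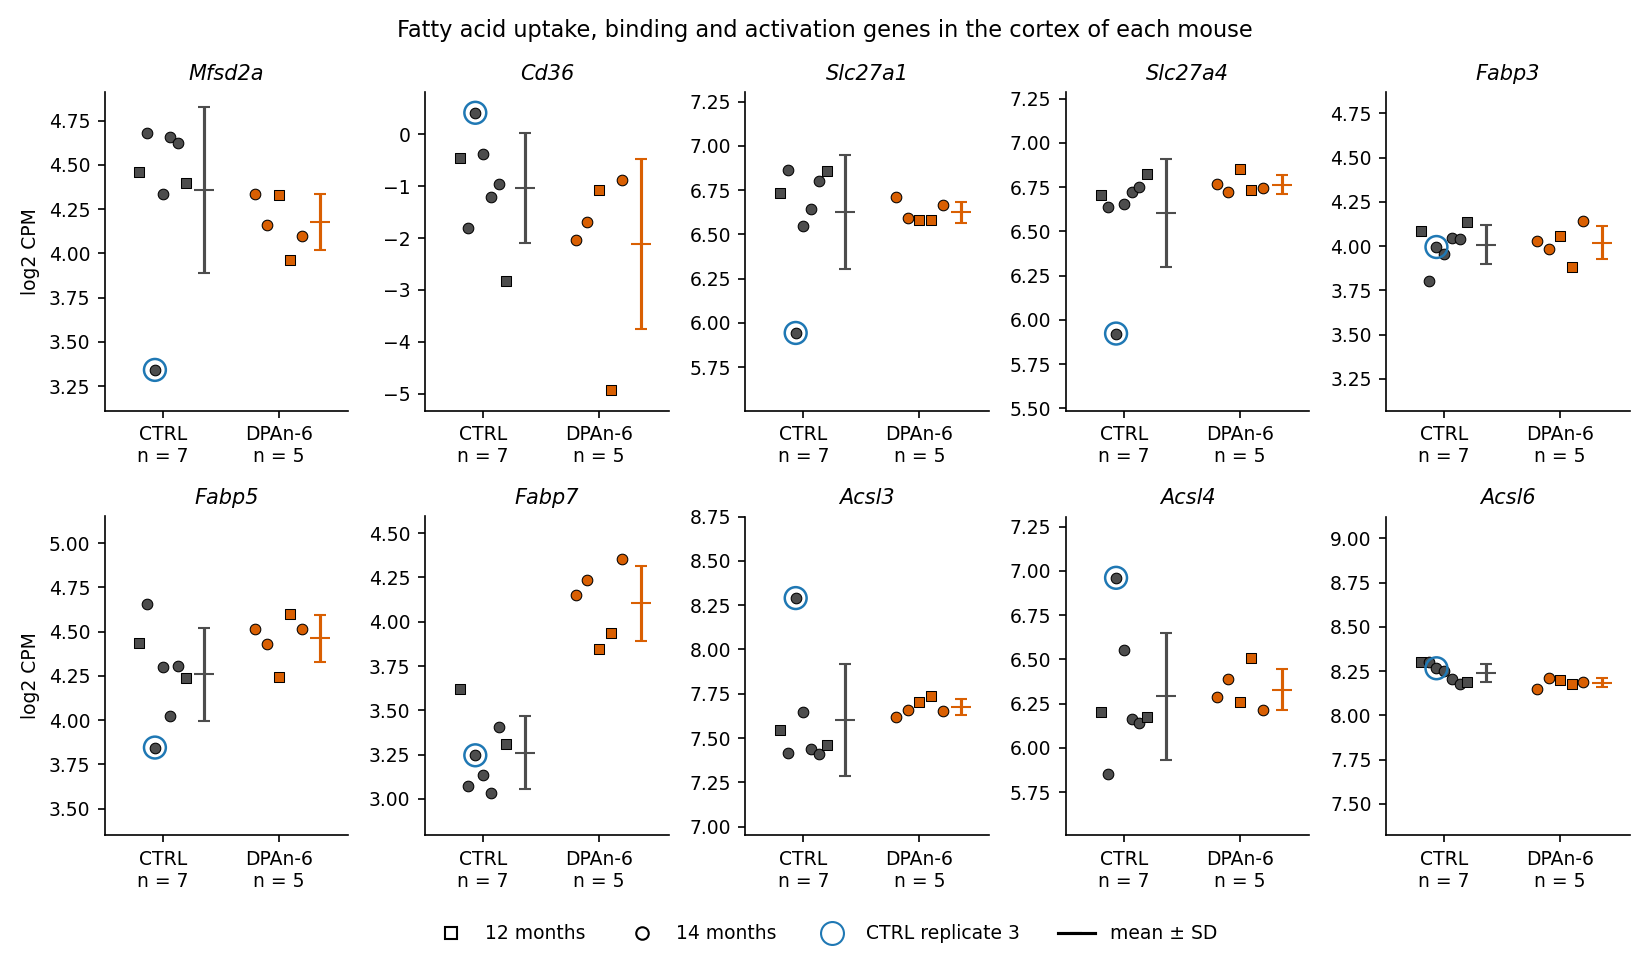
Log2 CPM of each of the 10 genes in each mouse, by group, with squares for mice of 12 months, circles for mice of 14 months, a ring around CTRL replicate 3 and the group mean ± SD beside the points. Each panel has its own log2 axis. The groups do not overlap for Fabp7, and the ringed mouse lies at an end of the CTRL group for Mfsd2a, Cd36, Slc27a1, Slc27a4, Fabp5, Acsl3 and Acsl4.

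Fabp7 (ENSMUSG00000019874; chr10:57784881-57788450, plus strand, GRCm38) was higher in every treated mouse than in any CTRL mouse. In CTRL it ranged from 8.15 to 12.3 CPM with a median of 9.45, or 131 to 210 reads per library. In DPAn-6 it was 17.8, 18.8, 14.3, 15.3 and 20.5 CPM for replicates 1 to 5. The groups did not overlap, a separation in this direction that 1.73% of all genes tested showed. Mean log2 CPM was 3.26 ± 0.21 (SD, n = 7) for CTRL against 4.10 ± 0.21 (SD, n = 5) for DPAn-6, with p = 0.00126 by a two-sided exact permutation test, the smallest p that the 792 splits of the mice allow. By edgeR the log2 fold change was 0.82 with a standard error of 0.12 and a 95% interval of 0.57 to 1.07, which is 1.77-fold (1.48 to 2.11). The adjusted p was 0.00429, and Fabp7 stood at rank 17 of all genes by p. The rise was as large without CTRL replicate 3, at 0.83, with an adjusted edgeR p of 0.000921.

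The stretch around the start site of Fabp7 is shown because this gene carries the difference, beside that of Fabp3, a family member whose groups overlapped. Both are from RefSeq (GRCm38.p6) and run from 250 bases before to 50 bases after the start annotated there. They are on the plus strand, chr10:57784673-57784972 for Fabp7 and chr4:130308488-130308787 for Fabp3. The GENCODE gene positions begin inside these stretches and before the RefSeq start, at 57784881 for Fabp7 and 130308595 for Fabp3. Capitals mark matches to 5 short motifs searched on both strands.
Fabp7: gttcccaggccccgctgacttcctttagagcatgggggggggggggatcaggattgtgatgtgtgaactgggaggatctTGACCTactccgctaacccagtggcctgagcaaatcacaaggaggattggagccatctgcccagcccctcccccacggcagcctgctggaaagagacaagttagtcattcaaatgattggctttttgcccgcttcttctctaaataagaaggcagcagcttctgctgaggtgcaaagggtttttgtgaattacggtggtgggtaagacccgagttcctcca
Fabp3: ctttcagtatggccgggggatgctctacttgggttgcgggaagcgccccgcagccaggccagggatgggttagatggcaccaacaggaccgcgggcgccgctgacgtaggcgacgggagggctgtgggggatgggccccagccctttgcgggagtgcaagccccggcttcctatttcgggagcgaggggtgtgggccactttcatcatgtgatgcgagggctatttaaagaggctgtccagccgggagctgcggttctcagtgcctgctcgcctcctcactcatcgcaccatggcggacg
The capitals in Fabp7 are a nuclear receptor half-site (AGGTCA) read on the other strand, with its first base 171 bases before the start site. Fabp3 held none of the 5 motifs. The GC content was 54% for Fabp7 and 65% for Fabp3.

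Across all 32851 promoters of that table, 16.3% held the half-site AGGTCA. It was in 4 of the 13 promoters of the 10 genes, those of Fabp7, Mfsd2a, Cd36 and Acsl6. The E-box CACGTG was in 1 of the 13, a promoter of Slc27a1, and in 7.15% of all promoters. The D-box TTATGTAA was in 0 of the 13 and in 0.938% of all, and the TATA box TATAAA in 0 of the 13 and in 13.6% of all. The GC box GGGCGG was in 9 of the 13, in promoters of Acsl3, Acsl4, Acsl6, Cd36, Slc27a1 and Slc27a4, and in 35.7% of all. No motif was a part of another, and 9 of the 10 genes had a promoter in the table. These matches describe letters only.

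Fabp7 was also described by age, since the labels give 12 and 14 months. In CTRL the mean was 11.1 CPM at 12 months (2 mice) and 9.07 CPM at 14 months (5 mice). In DPAn-6 it was 14.8 CPM at 12 months (2 mice) and 19.0 CPM at 14 months (3 mice). Treated mice exceeded CTRL mice at both ages, and the gap was wider at 14 months. The difference between the gaps was 0.62 on the log2 scale (standard error 0.21, 95% interval 0.17 to 1.07) with an unadjusted edgeR p of 0.0103 and an adjusted p of 0.905. In the 14-month mice alone the log2 fold change of Fabp7 was 1.04 with an adjusted edgeR p of 0.0386.

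Markers of the cell types known to express Fabp7 had mostly lower estimates. Of 10 astrocyte markers tested, 0 were called at an adjusted edgeR p below 0.05, 4 had an unadjusted p below 0.05 and a lower estimate, and the median log2 fold change was -0.19. They include Slc1a2, Slc1a3, Aqp4 and Gfap, none of which was at 0. Their summed level was 7576 to 11554 CPM in CTRL (median 8488) and 6787 to 8371 CPM in DPAn-6 (median 7324). The highest CTRL sum was that of replicate 3, and Slc1a2 alone had a mean of 4638 CPM over the mice. Of 6 markers of oligodendrocyte precursors, 0 were called by edgeR and 1 had an unadjusted p below 0.05, with a lower estimate, and the sum was 212 to 258 CPM in CTRL and 187 to 236 CPM in DPAn-6. Fabp7 is also a gene whose mRNA is known to cycle over the day, and the labels give no hour of sampling. Of 8 circadian clock and clock output genes (Dbp, Tef, Per1, Per2, Per3, Nr1d1, Nr1d2 and Ciart), 2 had a higher and 6 a lower estimate. At an adjusted edgeR p below 0.05, 3 of these 8 (Dbp, Per2 and Per3) were called lower. All 3 genes of the Bmal1 arm had a higher estimate, and 1 was called. Over all genes tested, 1.55% were called in either direction and 0.408% were called higher. An unadjusted edgeR p below 0.05 was found for 14.5% of all genes. The part of these clock genes in the result for Fabp7 was not tested.

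Markers of the choroid plexus differed in level between the groups. Ttr, its most abundant marker, ranged from 6.0 to 1530 CPM in CTRL and from 1.79 to 14.7 CPM in DPAn-6. All 6 choroid plexus markers tested had a lower estimate, with 0 called by edgeR. At an unadjusted p below 0.05 there were 5, against 14.5% of all genes tested. With the log2 CPM of Ttr as a covariate, the log2 fold change of Fabp7 was 0.69, the unadjusted p was 0.00055 and the adjusted p was 0.147 by edgeR, and the count over all genes fell from 243 to 17. The choroid plexus level went largely with the group, and its part in the result for Fabp7 was not tested. The share of Gm42418, a transcript that overlaps ribosomal RNA sequence, also moved with the groups. It took 0.279% to 3.92% of the counts in CTRL and 0.401% to 0.81% in DPAn-6, and every CTRL library but that of replicate 3 lay above the DPAn-6 range. Its part in the result was not tested either.

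Fabp3 and Fabp5, the other 2 binding proteins, overlapped between the groups. Fabp3 (ENSMUSG00000028773; chr4:130308595-130315463, plus strand), the heart-type protein, ranged from 13.9 to 17.6 CPM in CTRL with a median of 16.5. It was 16.3, 15.8, 16.6, 14.7 and 17.6 CPM in the DPAn-6 mice. Treated values were spread over most of the CTRL range, and the log2 fold change was -0.01 with a 95% interval of -0.18 to 0.15 and an adjusted edgeR p of 0.969. Exons of Fabp3 overlap those of Zcchc17 and Gm10570 on the opposite strand, with 9128 and 104 counts in all against 3564 for Fabp3. A 402-base stretch of the pseudogene Fabp3-ps1 is 99.3% identical and had 5 counts. Reads that Fabp3 shares with these genes may have been left out by the counting of STAR.

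Fabp5 (ENSMUSG00000027533; chr3:10012548-10016607, plus strand), the epidermal-type protein, ranged from 14.3 to 25.2 CPM in CTRL with a median of 19.7. It was 22.9, 21.5, 19.0, 24.3 and 22.8 CPM in the DPAn-6 mice. The treated mice were within the CTRL range, 4 of 5 of them above the CTRL mean on the log2 scale. The log2 fold change was 0.17 (standard error 0.12, 95% interval -0.09 to 0.42) with an adjusted edgeR p of 0.582. The upper ends of the intervals of Fabp3 and Fabp5 were thus below the lower end for Fabp7, at 0.57. That difference between genes was not tested. The highest Fabp5 value was that of CTRL replicate 2. Without that mouse the log2 fold change of Fabp5 was 0.24, with an unadjusted p of 0.0368 and an adjusted p of 0.34 by edgeR.

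Of the uptake genes, Mfsd2a had the lowest estimate among those tested. Mfsd2a (ENSMUSG00000028655; chr4:122946850-122961188, minus strand) ranged from 10.1 to 25.6 CPM in CTRL with a median of 22.0. It was 20.16, 17.9, 20.1, 15.6 and 17.1 CPM in DPAn-6. The 10.1 CPM belonged to CTRL replicate 3, and the other 6 CTRL mice were between 20.17 and 25.6 CPM. All 5 treated mice therefore lay inside the CTRL range when that mouse was counted and below every other CTRL mouse, by a narrow margin for replicate 1, when it was not.

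In all 12 mice the log2 fold change of Mfsd2a was -0.25 (standard error 0.17, 95% interval -0.61 to 0.11) with an adjusted edgeR p of 0.559. Without CTRL replicate 3 it was -0.36 (standard error 0.087, 95% interval -0.55 to -0.18) with an adjusted edgeR p of 0.0224, so the call rests on whether that mouse is counted. Of 10 endothelial markers, 4 had a higher and 6 a lower estimate in the 12 mice, 0 were called by edgeR and 2 had an unadjusted p below 0.05, 1 in each direction. An unadjusted p below 0.05 was found for 14.5% of all genes tested. The sum of the endothelial markers was 364 to 421 CPM in CTRL and 355 to 406 CPM in DPAn-6.

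Slc27a1 and Slc27a4 encode the fatty acid transport proteins FATP1 and FATP4, which also have acyl-CoA synthetase activity. Slc27a1 (ENSMUSG00000031808; chr8:71568882-71587302, plus strand) ranged from 61.5 to 116.5 CPM in CTRL with a median of 106.6, and was 104.7, 96.3, 95.5, 95.5 and 101.4 CPM in the treated mice. The log2 fold change of Slc27a1 was -0.05 (95% interval -0.30 to 0.20) with an adjusted edgeR p of 0.896. Both the lowest and the highest value belonged to CTRL mice, the lowest to replicate 3.

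Slc27a4 (ENSMUSG00000059316; chr2:29802634-29817522, plus strand) ranged from 60.6 to 113.3 CPM in CTRL with a median of 104.3, and was 109.0, 105.4, 115.5, 106.5 and 107.2 CPM in the treated mice. The log2 fold change of Slc27a4 was 0.12 (95% interval -0.12 to 0.35) with an adjusted edgeR p of 0.707. Without CTRL replicate 3 it was 0.03 (95% interval -0.07 to 0.13) with an adjusted edgeR p of 0.74. That mouse again had the lowest value, and 1 treated mouse exceeded every CTRL mouse.

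Cd36 (ENSMUSG00000002944; chr5:17781690-17888801, minus strand), a scavenger receptor that takes up fatty acids in many tissues, was near the limit of detection. It had 2 to 20 counts in the CTRL mice, with a median of 9, and 4, 5, 9, 0 and 14 counts in DPAn-6 replicates 1 to 5. In the library with 0 counts, a level of up to 0.197 CPM (3 counts of the library) is allowed. The groups overlapped, and Cd36 did not pass the filter on low counts. In a fit without the filter its log2 fold change was -0.84 (standard error 0.51, 95% interval -1.90 to 0.22) with an unadjusted p of 0.115 and an adjusted p of 0.58 by edgeR. The size of the difference depended on the library with 0 counts, since the difference of mean log2 CPM was -1.09 in all 12 mice and -0.39 without DPAn-6 replicate 4. Of 7 markers of border-associated macrophages, a cell type known to express Cd36, 5 were tested. All 5 had a lower estimate in DPAn-6 and 3 were called by edgeR, against 1.55% of all genes called in either direction. The sum of the 7 markers was 11.3 to 16.95 CPM in CTRL and 4.94 to 7.14 CPM in DPAn-6. The highest sum was that of CTRL replicate 3, which also had the most Cd36. Lower estimates were not particular to this list. All 8 microglial markers tested (2 called by edgeR) and all 7 markers of activated microglia (4 called) also had one. Of 10 endothelial markers, 4 had a higher and 6 a lower estimate, with 0 called. The part of these cell types in the Cd36 values was not tested.

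The 3 synthetases did not pass the test. Acsl3 (ENSMUSG00000032883; chr1:78657825-78707743, plus strand) ranged from 170.3 to 313.1 CPM in CTRL with a median of 176.1, and was 196.8, 201.8, 208.2, 213.4 and 201.2 CPM in DPAn-6. The highest value was that of CTRL replicate 3, and the other 6 CTRL mice were between 170.3 and 200.01 CPM. The log2 fold change was 0.01 (95% interval -0.29 to 0.31) with an adjusted edgeR p of 0.983. Without CTRL replicate 3 it was 0.17 (95% interval 0.06 to 0.28) with an unadjusted p of 0.00542 and an adjusted p of 0.0683 by edgeR. Acsl3 shares exons with Utp14b on the same strand, which had 4014 counts in all against 43768 for Acsl3, and reads that overlap both genes are left out by the counting of STAR.

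Acsl4 (ENSMUSG00000031278; chrX:142317993-142390535, minus strand) ranged from 57.8 to 124.5 CPM in CTRL with a median of 72.2, and was 77.99, 83.7, 76.5, 90.8 and 74.1 CPM in DPAn-6. The treated mice lay in the middle of the CTRL range, whose upper end was again replicate 3. The log2 fold change was -0.03 (95% interval -0.36 to 0.31) with an adjusted edgeR p of 0.966, and 0.12 without that mouse.

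Acsl6 (ENSMUSG00000020333; chr11:54303798-54364756, plus strand) was the most even of the 10 genes, with an SD of 0.05 in log2 CPM over the 12 mice. It ranged from 289.6 to 315.0 CPM in CTRL with a median of 304.9, and was 283.7, 296.5, 293.9, 289.4 and 291.3 CPM in DPAn-6. Each of the 5 treated mice was under the mean of CTRL, and 2 of them were under its lowest value. Mean log2 CPM was 8.24 ± 0.05 in CTRL and 8.18 ± 0.02 in DPAn-6, with p = 0.048 by the exact permutation test, 1 of 10 such tests, and the log2 fold change by edgeR was -0.08 (95% interval -0.19 to 0.03, adjusted p = 0.529). The exact p was above 0.05 in 10 of 15 alternatives. The other 8 genes besides Fabp7 and Acsl6 had exact permutation p-values from 0.152 to 0.997.

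**Figure D3:**
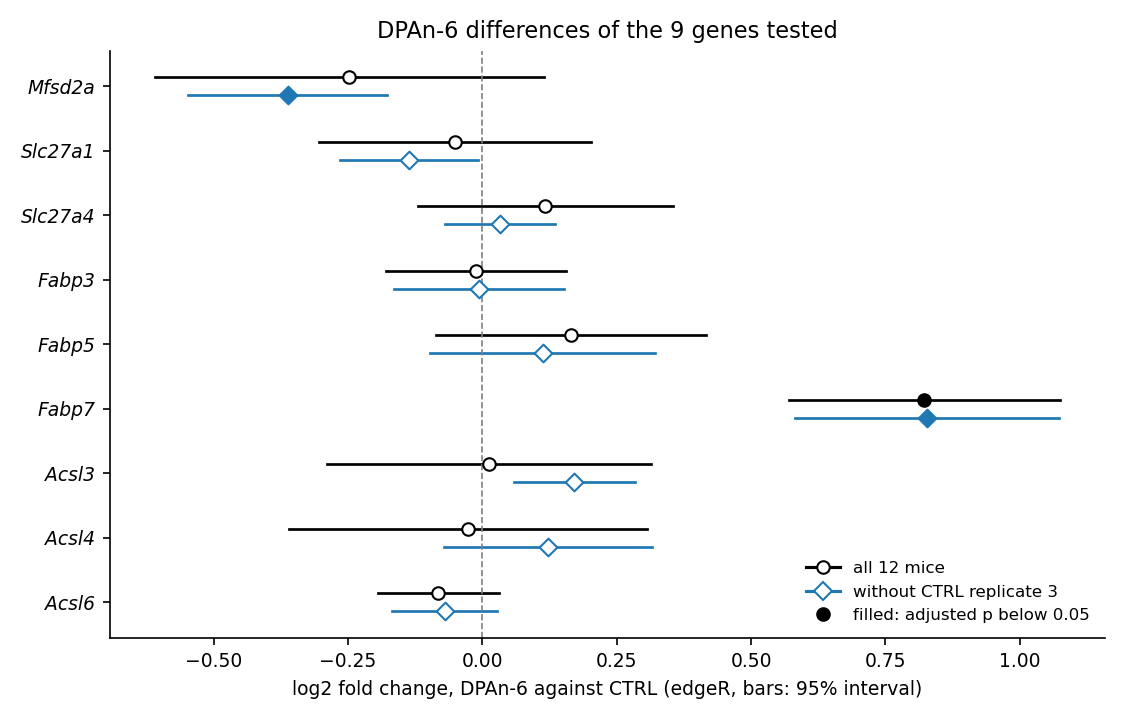
Log2 fold change of the 9 genes tested, DPAn-6 against CTRL, with 95% intervals from edgeR, in all 12 mice (circles) and without CTRL replicate 3 (diamonds). Filled symbols have an adjusted p below 0.05: Fabp7 in both fits and Mfsd2a only without that mouse.

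Leaving out CTRL replicate 3 changed the counts of the group. At an adjusted edgeR p below 0.05 it left 2 of 9 genes called, Fabp7 and Mfsd2a, against 6.1% of the 15616 genes tested in that fit. At an unadjusted p below 0.05 it left 4 of 9, with Slc27a1 (-0.14, unadjusted p = 0.0393, adjusted p = 0.193) and Acsl3 beside them, against 23.1% of all genes. The lower estimates without that mouse were thus those of the uptake genes Mfsd2a and Slc27a1 and of Acsl6 and Fabp3, and the higher ones those of the other 5 genes tested.

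Age had no called effect on the 10 genes. With the group in the model, 0 of the 9 genes tested differed between 14 and 12 months at an adjusted edgeR p below 0.05, against 0% of all genes, and 0 of 9 at an unadjusted p below 0.05, against 1.78%. The estimates for 14 against 12 months ran from -0.13 for Slc27a4 to 0.07 for Acsl4. For the interaction of group and age, 0 of 9 were called by edgeR, against 0.00637% of all genes (1 gene), and 1 of 9, Fabp7, had an unadjusted p below 0.05, against 4.26%. With 2 CTRL and 2 DPAn-6 mice at 12 months, these tests have little precision.

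The genes did not vary independently from mouse to mouse. Pearson and Spearman correlations of log2 CPM over the 12 mice were computed for all 45 pairs, with each group centred on its own mean so that the difference between the groups could not produce them. By permutation within groups, 5 pairs had an adjusted p below 0.05 (10 an unadjusted p below 0.05). Acsl3 and Acsl4 rose and fell together, with r = 0.904 and rho = 0.937 (adjusted permutation p = 0.0178 and 0.0252). Mfsd2a ran against both, with r = -0.960 for Acsl3 (adjusted permutation p = 0.0187; rho = -0.839, 0.0319) and r = -0.897 for Acsl4 (adjusted permutation p = 0.0178; rho = -0.783, 0.0705). Slc27a1 also ran against both, with r = -0.967 for Acsl3 (adjusted permutation p = 0.0301; rho = -0.881, 0.0432) and r = -0.913 for Acsl4 (adjusted permutation p = 0.0187; rho = -0.839, 0.0799). A barrier carrier and a transport protein were thus low in the mice in which these 2 synthetases were high. The share of all gene pairs with such an r was not computed. On TMM-scaled values, genes outside the 10 followed these genes as closely. Map3k10 was at 0.994 with Slc27a1, Mtpn at 0.993 with Acsl4 and Gba2 at 0.983 with Mfsd2a. The 5 relations are therefore not shown to be particular to genes of fatty acid handling.

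**Figure D4:**
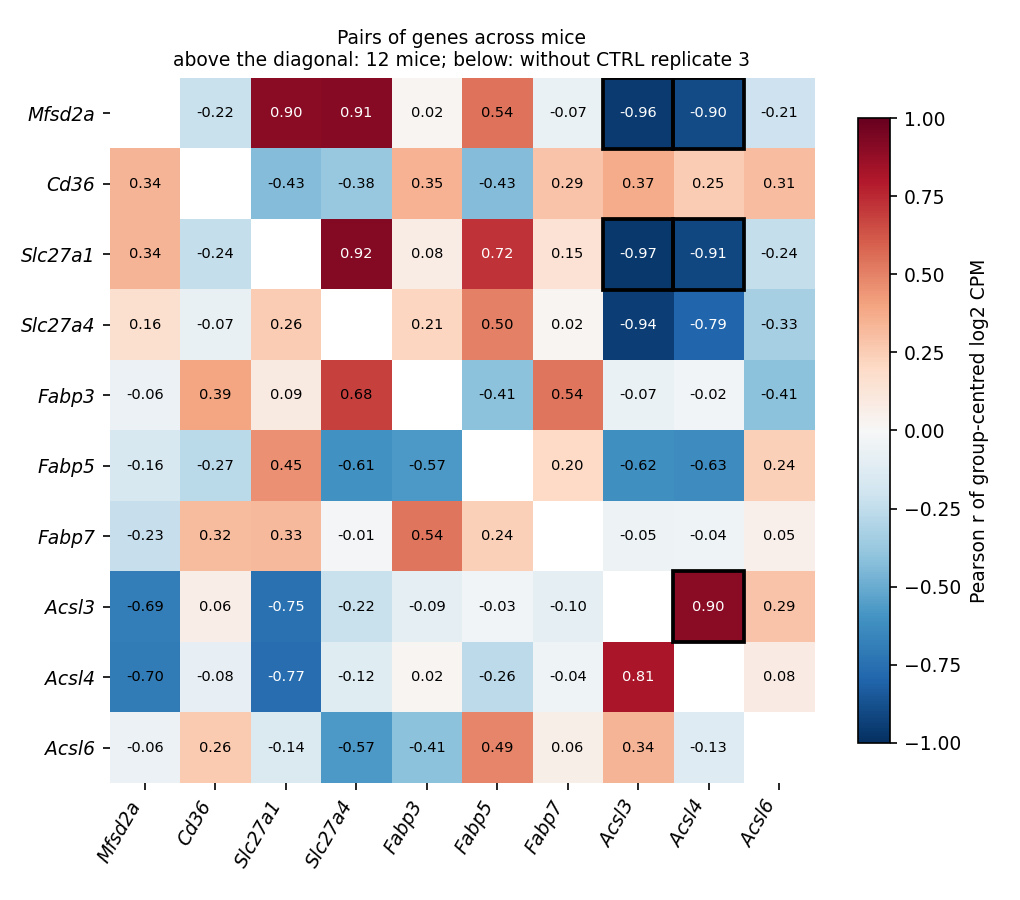
Pearson r of group-centred log2 CPM for each pair of the 10 genes, over the 12 mice above the diagonal and without CTRL replicate 3 below it, from blue (-1) to red (1). The 5 boxed pairs have an adjusted permutation p below 0.05, and among the same pairs without that mouse r is 0.81 for Acsl3 and Acsl4 and between -0.69 and -0.77 for the other 4.

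These 5 relations rest in part on CTRL replicate 3, which had the lowest Mfsd2a and Slc27a1 and the highest Acsl3 and Acsl4. Without it, 0 of 45 pairs had an adjusted permutation p below 0.05, and 6 had an unadjusted p below 0.05. Without CTRL replicate 3 the centred r was 0.814 for Acsl3 and Acsl4, -0.690 for Mfsd2a and Acsl3, -0.695 for Mfsd2a and Acsl4, -0.749 for Slc27a1 and Acsl3, and -0.765 for Slc27a1 and Acsl4. The count at an adjusted p was also 0 without CTRL replicate 4 or without DPAn-6 replicate 4. Leaving out the 2 mice whose value of the first gene was farthest from its median, one of which was always CTRL replicate 3, r was 0.843, -0.648, -0.639, -0.707 and -0.701 in the same order. All 5 kept their sign. Without centring, r was 0.902, -0.958, -0.884, -0.956 and -0.911, with adjusted permutation p-values of 0.0018, 0.0009, 0.00576, 0.00326 and 0.0009. Fabp7 had no centred r beyond 0.54 in size with any of the other 9 genes, its largest being that with Fabp3, and it was at -0.05 and -0.04 with Acsl3 and Acsl4.

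The genes most alike to each of the 10 were taken as the 3 largest centred Pearson r over the 12 mice among 13224 genes, a description with no test. For Fabp7 they were Snx33 (r = 0.904), Ctsb, a lysosomal protease (0.865), and Atf3, a stress-induced transcription factor (0.844). Ctsb was at 0.911 without CTRL replicate 3. For Mfsd2a they were Gba2 (0.983), Fsd1 (0.982) and Dgat1 (0.982), which encodes an enzyme of triglyceride synthesis. These 3 fell to 0.890, 0.889 and 0.923 without CTRL replicate 3.

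For Slc27a1 the genes most alike were Map3k10 (0.994), Pck2 (0.991) and 2310011J03Rik (0.991), and for Slc27a4 they were Uqcrfs1 (0.992), Asphd2 (0.988) and Cox5a (0.988), of which Uqcrfs1 and Cox5a encode subunits of the respiratory chain. For Acsl3 they were Cbll1 (0.988), Ube2d1 (0.988) and Arid4a (0.987), and for Acsl4 Mtpn (0.993), Alg11 (0.992) and Trove2 (0.989). The values for Acsl4 were 0.980, 0.986 and 0.969 without CTRL replicate 3. The r values were lower for Fabp5, with Metrnl (0.921), Col11a2 (0.915) and Ryr1 (0.913), and for Acsl6, with Amot (0.914), Shroom4 (0.907) and Rab27a (0.903). For Fabp3 they were those of Vps39 (0.874), Fbxo16 (0.872) and Slc10a3 (0.868), and they were lowest for the sparsely counted Cd36, with Dclre1b (0.827), Slc38a5 (0.826) and Grm8 (0.826).

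Other genes of the same processes gave the setting of the 10. Of 13 other carriers and receptors for fatty acids and lipoproteins, 10 were tested, 5 with a higher and 5 with a lower estimate, and 0 were called by edgeR (1 at an unadjusted p below 0.05). Of all genes tested, 14.5% had an unadjusted p below 0.05. The median log2 fold change of the list was -0.01. Lrp1, a large receptor for apolipoprotein E, had the lowest p of this list and the highest level per length, at 56.8 RPKM, with a log2 fold change of -0.29 and an unadjusted p of 0.012 (adjusted 0.183) by edgeR. Without CTRL replicate 3 Lrp1 was at -0.36 with an adjusted edgeR p of 0.00463. Got2, a mitochondrial aminotransferase that also binds fatty acids at the cell membrane, was at 20.2 RPKM and 0.19 on the log2 scale (adjusted p = 0.479), and Lsr, a lipoprotein receptor, at -0.14 (adjusted p = 0.719).

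Of 14 other binding proteins for fatty acids and acyl-CoA, 6 were tested, 2 with a higher and 4 with a lower estimate, and 0 were called by edgeR (0 at an unadjusted p below 0.05). The list has a median log2 fold change of -0.01. Fabp2, Fabp6, Fabp9 and Fabp12 had 0 counts in every mouse, and Fabp1 and Pmp2 at most 1 count, so that Fabp3, Fabp5 and Fabp7 gave nearly all Fabp reads in this cortex. Fabp4, the adipocyte form, had at most 5 counts, and the adipocyte markers Cidec and Lep were at 0. Dbi, the acyl-CoA binding protein, had 60.8 RPKM and a log2 fold change of -0.01. Scp2, a sterol carrier protein with 9.41 RPKM, was at -0.17 (unadjusted p = 0.0722), Acbd6 at 0.10 (0.123) and Acbd5 at -0.10 (0.478).

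Of 17 other synthetases and acyl-CoA thioesterases, 16 were tested, 7 with a higher and 9 with a lower estimate, and 1 was called by edgeR (1.55% of all genes were), with 1 higher and 2 lower at an unadjusted p below 0.05. The called gene was Acss3, a mitochondrial short-chain synthetase, which was lower in DPAn-6 by edgeR. Its log2 fold change was -0.85, with a standard error of 0.19 and an adjusted edgeR p of 0.0347. Its level was low, at 0.26 RPKM and at most 52 counts in a library. This call was lost in 13 of 23 alternatives, with adjusted p-values from 0.00578 to 0.533. Acot7, the main brain acyl-CoA thioesterase, had the highest level of the list at 94.9 RPKM and was at 0.21 (unadjusted p = 0.0276, adjusted p = 0.269). Acss1, another mitochondrial short-chain synthetase, was at -0.21 (unadjusted p = 0.0289), and Acot13, a thioesterase with 53.9 RPKM, at 0.13 (0.0952). The median log2 fold change of the list was -0.02, against -0.0047 for all genes, of which 14.5% had an unadjusted p below 0.05.

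**Figure D5:**
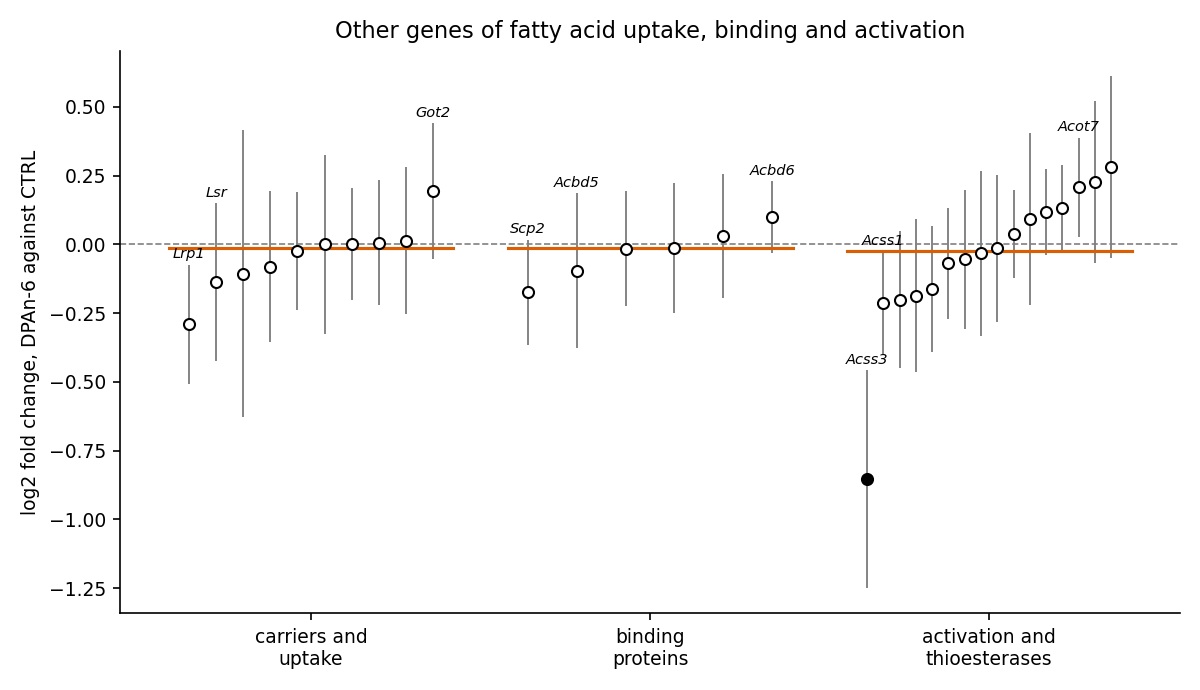
Log2 fold change of each tested gene of the other 3 lists, DPAn-6 against CTRL, with 95% intervals from edgeR and the median of each list as an orange line. The medians lie between -0.02 and -0.01, and Acss3 is the only filled point, with an adjusted p below 0.05.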

How the data were processed

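RNA-Seq libraries were made from cortex RNA of 12 mice, 1 per mouse, after poly(A) selection (KAPA mRNA kit). Per the labels and the study's methods, reads were aligned with STAR (2.5.3a in the submitters' processing notes) to GRCm38 with Ensembl annotation, and the authors deposited the raw count of each gene, not normalized. The strand setting of the counting is not given in the sources used here.

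Totals were 15208803 to 26520251 counts per library. CPM, log2 CPM (pseudocount of 0.5) and RPKM were computed here from the deposited counts. Names, positions and exon lengths came from GENCODE M21 of GRCm38, which matched 50339 of 50563 identifiers. All genes were tested with edgeR 4.0.16 (TMM, filterByExpr, glmQLFit and glmQLFTest, no covariate) in R 4.3.3, after the code had been tested on simulated data, with Benjamini-Hochberg adjustment. The 10 genes were compared one by one by exact permutation tests, and pairs by 100000 permutations, with Python 3.11.15, numpy 2.4.6 and pandas 2.3.3. p-values measure the spread between mice, and intervals at a count of 0 cover counting error only.

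The 10 genes and all lists were chosen with earlier results of these data known. All 10 are named. Of the 3 other lists, genes are named with an adjusted p below 0.05, among the 3 smallest p or among the 2 highest RPKM of their list. Fabp genes at or near 0 counts, Ttr, Gm42418, the clock genes, and the marker genes given as examples were named after their values were seen. Alternatives were DESeq2 1.42.0, limma-voom 3.58.1, other filters and scaling, age, Xist or Ttr as covariate, 14-month mice only, a replicate block, each mouse left out and, added after the data were seen, a fit without the trend of each library on the length and GC content of transcripts.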

Additional observations from a re-analysis of the deposited data

Results flagged for a closer look

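CTRL replicate 3 lay far from the other 6 CTRL mice for 4 of the 10 genes, by Dixon's 95% criterion on log2 CPM. It was the lowest for Mfsd2a (3.34), Slc27a1 (5.94) and Slc27a4 (5.92), and the highest for Acsl3 (8.29). Among the DPAn-6 mice, replicate 4 lay far below the others for Cd36, at -4.93, which stands for 0 counts. Chance flags about 1 in 20 groups, and 20 groups were examined. The results for Mfsd2a, Slc27a1, Slc27a4 and Acsl3 are given with and without CTRL replicate 3 in the plot of differences.

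For 2 genes, every DPAn-6 mouse of one age lay on one side of the CTRL mean of that age and every DPAn-6 mouse of the other age on the opposite side. They were Slc27a1, with a difference between the ages of 0.25 on the log2 scale (unadjusted edgeR p for the interaction of 0.343), and Fabp3, with 0.19 (0.274). Neither difference passed the test, with an adjusted p of 0.905 for both. Each pattern also rested on 1 CTRL mouse. Without CTRL replicate 3, the CTRL mean of Slc27a1 at 14 months moved from 6.56 to 6.71 log2 CPM, and the number of the 3 treated mice above it from 3 to 0, as at 12 months (0 of 2). Without CTRL replicate 2, that of Fabp3 moved from 3.97 to 4.01 log2 CPM, and 2 of 3 treated mice lay above it.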

How the results depend on the processing

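Fabp7 kept its direction in all 23 alternatives and its edgeR call in 22, with log2 fold changes of 0.69 to 1.04. The call was lost with Ttr as covariate, where 0 of the 10 genes were called. Without each mouse in turn the number called was 1 to 2 at an adjusted p below 0.05 and 1 to 4 at an unadjusted one, where the values above 1 came without CTRL replicate 3 or, unadjusted only, without CTRL replicate 2. Fabp7 remained called with the replicate block, at 0.86 (adjusted p = 0.0421), and the block left 79 of all genes called. Deviations of same-numbered mice correlated between -0.125 and 0.22, and no DPAn-6 mouse correlated best with the CTRL mouse of its number. The labels do not say whether same-numbered mice share more than a number, and so few correlations cannot settle it.

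The count over all genes, 243, was 673 by DESeq2, 17 with Ttr as covariate, 9 in 14-month mice only, 528 with the length and GC trend removed, and 64 to 953 with 1 mouse left out. The 1 other gene called in the 3 lists became 0 without a filter, with Ttr as covariate, in 14-month mice only and with the block, and 0 to 2 with 1 mouse left out. The 5 centred pairs became 0 to 5.

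Estimates near 0 changed sign. In 14-month mice only, the log2 fold change was 0.043 for Slc27a1, 0.061 for Fabp3 and -0.069 for Acsl3, and with the block it was 0.047, 0.016 and -0.019. Fabp3 was at 0.011 without TMM and at 0.0054 without a filter. Acsl4 was at 0.014 by limma-voom, at 0.00079 without TMM and at 0.059 with the trend removed. With 1 mouse left out, the ranges were -0.043 to 0.028 for Fabp3, -0.023 to 0.17 for Acsl3 and -0.092 to 0.12 for Acsl4. Differences of mean log2 CPM changed sign for Slc27a1 (0.095 in 14-month mice, -0.12 to 0.036 with 1 mouse left out), Fabp3 (-0.012 with TMM scaling, -0.024 to 0.045 with 1 mouse left out) and Acsl4 (-0.038 in 14-month mice, -0.035 to 0.15 with 1 mouse left out). The cause was not tested. Depth limits the precision for Cd36, at 0 to 20 counts per library.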
